A study of Rattus norvegicus with 36 samples.

Results

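The 8 libraries described here came from 2 parts of the medial prefrontal cortex, infralimbic (IL) and prelimbic (PL), of 4 cocaine-naïve rats, out of 36 libraries in the series. They were chosen by their labels, as all libraries of these regions from rats that took no cocaine, and IL was compared with PL within each rat (M157, M378, M476 and M480) across all miRNAs. The rats were outbred heterogeneous stock males, a line bred from several founder strains, and the tissue was dissected by hand from thick frozen slices, so each library is a mixture of cell types. The remaining 28 libraries were the nucleus accumbens (NAc) of the same 4 rats and all 3 regions of 8 rats that self-administered cocaine, of which 4 were taken at acute withdrawal (16 h in the sample labels) and 4 after 4 weeks of abstinence. The published methods give another interval for acute withdrawal, and that of the labels is used.

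Small RNA was sequenced and counted per mature miRNA, for 723 miRNAs, of which 457 passed a filter on low counts. Total counts ranged from 7517269 to 11035007 in the 8 libraries. The RNA integrity number (RIN), a score of how intact the RNA is, ranged from 8.5 to 9.2 and was higher in IL than in PL of each of the 4 rats. Levels are given as log2 CPM, where CPM is the count scaled to a common library total and corrected for library composition, and differences as IL minus PL of log2 CPM, where 1 stands for a 2-fold difference. Differences of single rats, and means over the 4 rats, are plain subtractions. Other differences for a group of rats are estimates of a fit that also adjusts for RIN, and can depart from the plain ones. Markers of the other cells a slice could hold were followed as lists. The PL library of M157 stood apart in 1 of them, as all 8 epithelial and sensory cell miRNAs tested were highest there among the 8 libraries.

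A mature miRNA is a short RNA that guides a silencing complex to messenger RNAs, mostly by pairing through its seed, the bases 2 to 8 from its 5′ end, and miRNAs with the same seed share many predicted targets. The PL lies above the IL on the medial wall of the frontal lobe. In rodent studies of drug seeking the PL is often tied to the drive to seek and the IL to its extinction, although the division is not strict. Both are agranular cortex built from similar layers and cell types. No miRNA marker that tells IL from PL was available, so the regional labels could not be checked against one.

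The sequences below are the mature forms of the miRNAs that the comparison turns on, from RefSeq (build GRCr8), with the seed in capitals. Names of 645 of the 723 miRNAs matched an entry. The first set holds the 6 miRNAs with the lowest p in the comparison.
rno-miR-331-5p: gGUCUUGUuuggguuuguu
rno-miR-653-3p: uUCACUGGgguuuguuucacua
rno-miR-199a-3p: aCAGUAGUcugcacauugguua
rno-miR-496-3p: aGUAUUACauggccaaucucc
rno-miR-504: aGACCCUGgucugcacucuguc
rno-miR-23a-3p: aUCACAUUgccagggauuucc

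The second set was chosen after the values were seen, because these miRNAs lay on the same side in all 4 rats.
rno-miR-206-3p: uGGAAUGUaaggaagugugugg
rno-miR-145-5p: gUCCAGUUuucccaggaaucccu
rno-miR-490-3p: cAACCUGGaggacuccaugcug
rno-miR-490-5p: cCAUGGAUcuccaggugggu

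The third set holds abundant miRNAs with few or many G and C bases whose differences varied most between the rats, the first 3 with a GC content at or under 45.5% and the last 3 at or above 57.0%.
rno-miR-7a-5p: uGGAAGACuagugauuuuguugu
rno-miR-126a-3p: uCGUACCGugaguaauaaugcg
rno-miR-16-5p: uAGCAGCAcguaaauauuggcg
rno-miR-667-3p: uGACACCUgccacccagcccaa
rno-miR-187-3p: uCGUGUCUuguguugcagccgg
rno-miR-128-2-5p: gGGGGCCGaugcacuguaaga

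Among the miRNAs tested, the seed of miR-23a-3p was shared by miR-23b-3p, and the other miRNAs of the first set had no partner with the same seed. In the other sets, the seed of miR-206-3p was shared by miR-1-3p, that of miR-7a-5p by miR-7b, that of miR-128-2-5p by miR-128-1-5p, and that of miR-16-5p by miR-15b-5p, miR-195-5p, miR-322-5p and miR-497-5p.

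No miRNA passed the test between IL and PL of the naïve rats. Of 457 tested, 0 had an adjusted p under 0.05 (0%; edgeR's quasi-likelihood test with the rat as a block, Benjamini-Hochberg adjustment), and the lowest adjusted p was 0.997. At an unadjusted p under 0.05 there were 3 (0.656%), of which 2 (0.438%) also reached the 1.5-fold change that the study used as its threshold. If no miRNA differed, a share of about 0.05 would be expected under this threshold, and the share seen was lower. DESeq2 and limma-voom also called 0, with 4 and 5 at an unadjusted p under 0.05. Leaving out 1 rat changed the 3 to 5 without M157, 18 without M378, 2 without M476 and 4 without M480, and the count of adjusted calls remained 0 each time.

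The same fit called many miRNAs elsewhere. NAc minus PL in the same 4 rats gave 263 (57.5%), and IL minus PL in the 8 cocaine rats gave 199 (43.5%), with 147 (32.2%) in the 4 withdrawal rats alone and 0 (0%) in the 4 abstinence rats alone. For the 216 miRNAs with a mean of at least 5 log2 CPM over all 36 libraries, the median SE of the difference was 0.22. The median half-width of the 95% interval was 0.46. The interval lay within a 2-fold difference either way for 203 of them and within 1.5-fold for 105. For the latter, a difference of 1.5-fold or more is outside the interval, which is approximate, and for the rest it is not.

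The 3 miRNAs at an unadjusted p under 0.05 did not pass the adjusted test. miR-331-5p had 5, 9, 3 and 4 reads in IL of M157, M378, M476 and M480, and 5, 11, 16 and 13 in PL. It was lower in IL in 3 of the 4 rats (log2FC = -1.37, SE 0.53, unadjusted p from edgeR = 0.0144), but in the 8 cocaine rats the difference was 0.62 (adjusted p = 0.16, edgeR). miR-653-3p had 1, 9, 5 and 4 reads in IL and 0, 2, 0 and 3 in PL, a sum of 19 against 5. These counts are near the limit of detection.

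The gene of miR-653 lies in an intron of the calcitonin receptor gene Calcr. miR-653-3p was higher in IL in all 4 naïve rats (log2FC = 1.99, SE 0.99, unadjusted p from edgeR = 0.0346), and it was the 1 miRNA of 457 that was higher, or lower, in IL in all 12 rats of the series. In several rats this rested on a read or so, such as 1 against 0 in M157 and, in the cocaine rat M366, 1 in IL against 2 in a deeper PL library. In the 8 cocaine rats the difference was 2.27 (adjusted p = 0.00192, edgeR), beside 102 of 457 (22.3%) called higher there. Its level was far higher in the NAc, with 3.20 ± 0.76 log2 CPM (SD, n = 4) against -1.10 ± 1.01 in IL and -3.01 ± 1.69 in PL. NAc minus PL was 5.98 (adjusted p = 5.4e-07, edgeR), and a part of NAc tissue in any slice was not tested.

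miR-199a-3p, known from fibroblasts and vessel walls, had levels of 5.28, 5.46, 5.42 and 4.70 log2 CPM in IL of M157, M378, M476 and M480, and of 6.05, 4.94, 6.01 and 5.79 in PL. IL was lower in 3 rats and higher in M378 (log2FC = -0.55, SE 0.26, unadjusted p from edgeR = 0.0491). The groups overlapped. In the 8 cocaine rats the difference was -0.51 (adjusted p = 0.0245, edgeR), beside 97 of 457 (21.2%) called lower there. IL was lower in 11 of all 12 rats. The other strand, miR-199a-5p, was -0.04 (SE 0.42) in the naïve rats and higher in IL in 2 of the 4. The split of miR-199a-3p, with M378 on the other side from the rest, was also seen for miR-496-3p, miR-23a-3p and miR-504.

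miR-504, whose gene lies in an intron of Fgf13, was the most abundant of these, at 11.00, 10.68, 11.14 and 11.22 log2 CPM in IL and 10.45, 10.98, 10.38 and 10.35 in PL. Its difference of 0.47 (SE 0.23, unadjusted p from edgeR = 0.0548) stood beside one of 0.88 in the 8 cocaine rats (adjusted p = 0.00109, edgeR). In those 8 rats 102 of 457 (22.3%) were called higher in IL and 97 (21.2%) lower. The median GC content of the called was 59.1% for higher and 42.9% for lower. miR-504 has 59.1% GC, and miR-496-3p, miR-23a-3p and miR-199a-3p have 42.9%, 47.6% and 40.9%. A part of GC content in the call of a single miRNA was not tested. miR-496-3p, of the imprinted miR-379 to miR-410 cluster, was -0.71 (SE 0.34) in the naïve rats and -0.93 (adjusted p = 0.0037, edgeR) in the cocaine rats. The other strand, miR-496-5p, was 0.03 (SE 0.33) in the naïve rats and higher in IL in 3 of the 4. miR-23a-3p was -0.64 (SE 0.32) in the naïve rats and -0.74 (adjusted p = 0.00993, edgeR) in the cocaine rats. Its seed partner miR-23b-3p was -0.35 (SE 0.22) in the naïve rats and lower in IL in all 4, and 0.01 (adjusted p = 0.965, edgeR) in the cocaine rats. These values rested in part on single rats. Without M476, miR-496-3p was -0.13, miR-23a-3p -0.30, miR-199a-3p -0.35 and miR-331-5p -0.88, without M480 miR-199a-3p was -0.27, and without M378 miR-504 was 0.80.

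**Figure D1:**
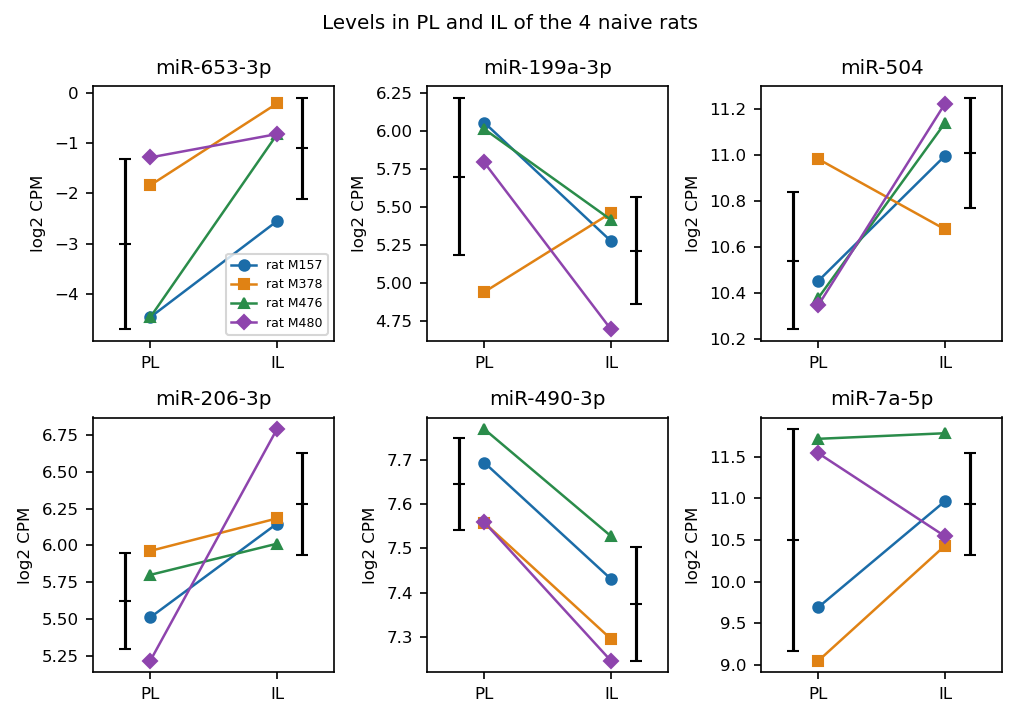
Levels (log2 CPM, vertical axis) of 6 miRNAs in PL and IL, with a line for each naïve rat and the mean ± SD of the 4 rats beside each region. The lines of miR-490-3p run parallel and those of miR-206-3p all slope up towards IL, while those of miR-7a-5p, miR-504 and miR-199a-3p cross.

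Of the 20 miRNAs with the lowest p, 10 in each direction, none passed the adjusted test. The 10 higher in IL were miR-653-3p, miR-504, miR-219-1-3p, miR-206-3p, miR-6324, miR-431, miR-6315, miR-137-5p, miR-448-5p and miR-187-3p, with differences from 0.29 to 1.99. The 10 lower in IL were miR-331-5p, miR-199a-3p, miR-496-3p, miR-23a-3p, miR-329-5p, miR-214-3p, miR-299a-5p, miR-1193-3p, miR-145-5p and miR-340-5p, with differences from -0.31 to -1.37. Of these, 4 of the 10 higher and 3 of the 10 lower lay on the same side in all 4 rats, beside 41 of 457 (8.97%) of all tested. The choice by lowest p in the same rats raises such a count. In each direction 4 had a mean level under 3 log2 CPM.

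**Figure D2:**
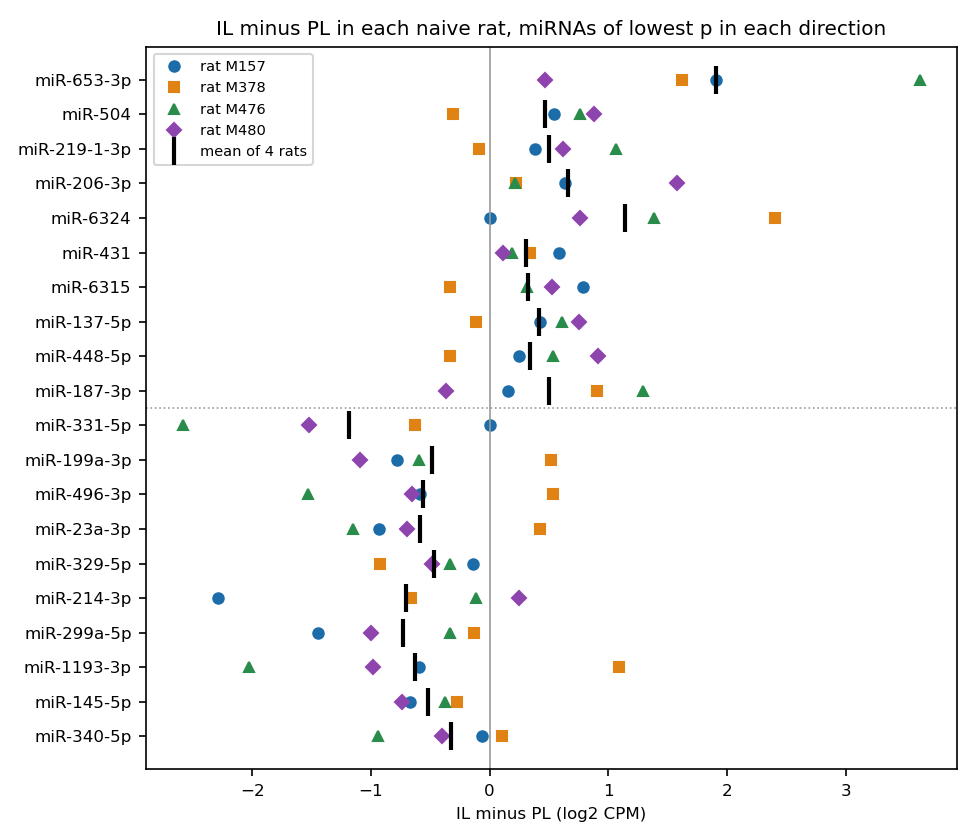
IL minus PL (log2 CPM, horizontal axis) in each of the 4 naïve rats for the 10 miRNAs of lowest p in each direction, with the mean as a black bar. Points of M378 lie on the other side of 0 from the rest for miRNAs that include miR-504, miR-199a-3p, miR-496-3p, miR-23a-3p and miR-1193-3p.

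All 4 rats had the same sign for 41 of the 457 miRNAs (8.97%), 17 higher and 24 lower in IL. The levels of the 4 IL and the 4 PL libraries did not overlap for 6 (1.31%), of which 1, miR-206-3p, was higher in IL and 5, miR-143-5p, miR-154-5p, miR-329-5p, miR-490-3p and miR-3572, were lower. With 4 pairs, an exact test of the signs within rats cannot go below p = 0.125, so no p is given for these. Random signs would put a share of 0.125 of miRNAs on the same side in all 4 rats, above the 8.97% seen. The miRNAs picked from these are therefore descriptions. Which miRNAs did not overlap depended on the scaling. With RLE factors 3 of the 6 still did not overlap, miR-143-5p, miR-206-3p and miR-329-5p, and with total counts alone 1 did not, miR-490-3p. None of the 6 was free of overlap under all 3 scalings.

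miR-490 lies in an intron of the muscarinic receptor gene Chrm2. miR-490-3p was at 7.43, 7.30, 7.53 and 7.25 log2 CPM in IL of M157, M378, M476 and M480, and at 7.69, 7.56, 7.77 and 7.56 in PL. IL was lower in every rat by a similar amount, with differences between -0.31 and -0.24, and their SD of 0.03 was the smallest of the 216 abundant miRNAs. This evenness was in part a matter of scaling, as the SD was 0.08 with RLE factors and 0.17 with total counts alone, with IL lower in all 4 rats under each. In the edgeR fit, which adjusts for RIN and shares its estimate of spread across libraries, the difference was -0.22 (SE 0.19, unadjusted p = 0.251).

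In the 8 cocaine rats miR-490-3p was lower in IL as well (log2FC = -0.40, SE 0.13, adjusted p = 0.014, edgeR). In that comparison 97 of 457 (21.2%) were called lower. IL was below PL in 11 of all 12 rats, the 4 naïve ones among them by the choice of this miRNA. The other strand, miR-490-5p, was lower in IL in all 4 naïve rats (-0.21, SE 0.23). NAc minus PL was -1.53 for miR-490-3p and -1.50 for miR-490-5p. The mean level of miR-490-3p was 7.65 ± 0.10 log2 CPM in PL, 7.38 ± 0.13 in IL and 6.10 ± 0.30 in NAc (SD, n = 4 each).

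miR-206-3p, best known as a miRNA of skeletal muscle, was at 6.15, 6.18, 6.01 and 6.79 log2 CPM in IL and 5.51, 5.96, 5.80 and 5.21 in PL. The difference was 0.56 (SE 0.32, unadjusted p from edgeR = 0.101), with M480 farthest from the others at 1.58, and was 0.35 without M480. The difference of its seed partner miR-1-3p was -0.58 (SE 0.49). miR-145-5p, of smooth muscle and pericytes, was lower in IL in all 4 rats, by 0.67, 0.28, 0.38 and 0.74, and was 0.17 (adjusted p = 0.445, edgeR) in the cocaine rats.

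The most abundant miRNAs had differences near 0. miR-128-3p, a brain miRNA that restrains neuronal excitability, was at 17.4 to 18.8 log2 CPM and its difference was 0.00 (SE 0.30). The next, miR-125a-5p, miR-127-3p, let-7c-5p and miR-328a-3p, had differences of -0.10, 0.05, 0.01 and 0.02. The 10 most abundant together held 63.0% to 64.7% of the counts of a library, and their differences lay between -0.10 and 0.12. In the 8 cocaine rats 8 of these 10 were called, beside 199 of 457 (43.5%) of all tested. Of the called, miR-128-3p, miR-26a-5p and let-7i-5p were lower and the others higher in IL. The let-7 members are near copies of each other, and reads of 1 could have been counted to another.

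Lists of miRNAs by cell type, host gene or family gave 0 calls in the naïve rats, so each is described by its counts and median, beside 202 of 457 above 0 and a median of -0.05 over all tested. Of miRNAs hosted by the serotonin receptor gene Htr2c, 6 of 6 were above 0 (median 0.45), although 2 of these were higher in IL in few rats, miR-764-3p in 2 of 4 and miR-1912-3p, nearly without reads here, in 1 of 4. The others were miR-1298 (0.35, SE 0.33), miR-764-5p (0.51, SE 0.44), miR-448-5p (0.44, SE 0.33) and miR-448-3p (0.45, SE 0.40). The medians of the 4 rats were 0.94, 0.26, 0.24 and 0.15, and M157 was the highest. In the 8 cocaine rats 3 of the 6 were called higher (median 0.58), beside 102 of 457 (22.3%) of all tested. The Htr2c miRNAs were at a higher level in the NAc, as miR-448-5p was (NAc minus PL 2.43, adjusted p = 2.6e-06, edgeR), and a part of NAc tissue in the slices was not tested.

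Markers of other cells did not pass either. Vessel miRNAs were below 0 in 6 of 6 (median -0.33), but their medians by rat ran from 0.45 in M378 and 0.39 in M157 to -0.44 in M476 and -1.06 in M480. Immune and microglial miRNAs were below 0 in 6 of 6 (median -0.20), with miR-146b-5p at -0.21, miR-150-5p at -0.26 and miR-146a-5p at -0.24. Their medians by rat were -0.19, -0.51, -0.45 and 0.23, and none of the 6 was lower in all 4 rats. The 4 oligodendrocyte miRNAs were above 0 (median 0.23), miR-219-2-3p at 0.22 (SE 0.37) and miR-338-5p at 0.12 (SE 0.27), with medians by rat from -0.19 to 0.41. Choroid plexus and ependymal miRNAs were above 0 in 7 of 8 (median 0.35), with M476 farthest at 1.5, where miR-34c-5p stood at 7.72 log2 CPM in IL against 4.94 to 5.79 in the other IL libraries. Of the red cell miRNAs 1 was tested, miR-451-5p, at no more than 1.22 CPM in any of the 8 libraries. The part of any of these cells in the comparison was not tested, and in tissue of this kind fewer cells of a type and less RNA per cell cannot be told apart.

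Neuron-enriched miRNAs had a median of -0.10, with 9 above and 10 below 0, and made up 23.1% to 42.6% of the counts of a library. Activity-regulated miRNAs had a median of -0.02, with 3 above and 3 below 0. Of these, miR-132-3p (-0.11, SE 0.19) and miR-212-3p (-0.23, SE 0.29) were lower in IL in all 4 rats, and miR-134-3p (0.12, SE 0.21) was higher in all 4. The other strands, miR-132-5p, miR-212-5p and miR-134-5p, were split. Epithelial and sensory cell miRNAs had medians by rat of -1.99, -0.05, 0.53 and 0.39. The PL library of M157 held miR-183-5p at 6.90 log2 CPM against 3.20 to 3.65 in the other PL libraries, and miR-200b-3p at 5.97 against -0.03 to 1.16. The miR-379 to miR-410 cluster, 58 tested, had a median of -0.11, let-7 one of -0.01, miR-29 one of -0.11 and miR-30 one of 0.00. The Meg3-proximal miRNAs (-0.06), miR-181 (-0.09), miR-17 and miR-92 (-0.16), miR-344 (0.08), accumbens-enriched (0.12), muscle (-0.25), mesenchyme (-0.55) and Hox cluster (-0.09) lists also held 0 calls.

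Within single rats many miRNAs differed in level by 1.5-fold or more, and some rats went opposite ways. In M378, 34 of the 216 abundant miRNAs were at least 1.5-fold higher and 24 lower in IL, and in M480 these were 28 and 34. Across 194 miRNAs with a known sequence, the differences of M378 and M480 had r = -0.78, M378 and M476 r = -0.47, and M157 and M480 r = -0.32. M476 and M480 had r = 0.57, M157 and M378 r = 0.43, and M157 and M476 r = 0.09. These are descriptions across miRNAs, which share libraries and base composition, and are not independent replicates.

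The differences followed the GC content of the mature sequence in each rat, in opposite directions. Spearman's rho between IL minus PL and GC content, over the same 194 miRNAs, was -0.25 in M157, -0.70 in M378, 0.59 in M476 and 0.64 in M480. For the 68 miRNAs at or under 45.5% GC the median difference was 0.17, 0.43, -0.45 and -0.34, and for the 49 at or above 57.0% it was -0.04, -0.47, 0.20 and 0.44. M157 and M378 thus had GC-poor miRNAs higher in IL, and M476 and M480 had them lower. IL minus PL of the RIN was 0.2, 0.4, 0.1 and 0.4 in M157, M378, M476 and M480, and IL had the larger total count in M157, M378 and M476. The part of either in these trends was not tested.

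**Figure D3:**
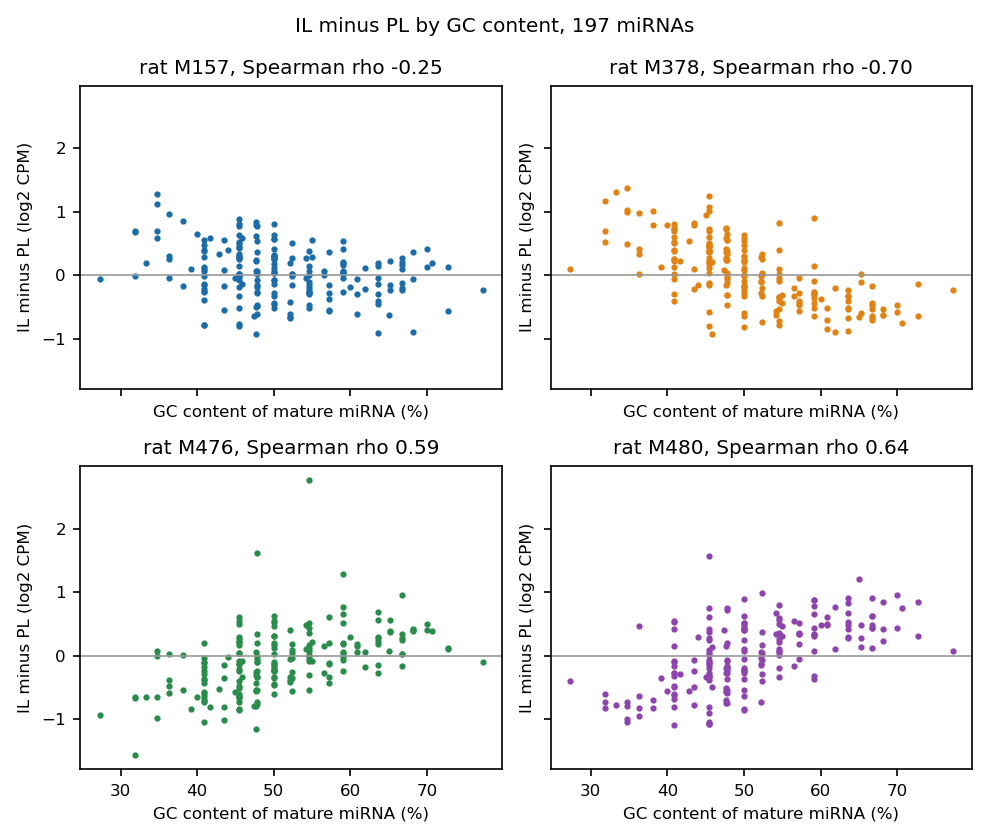
IL minus PL (log2 CPM, vertical axis) against the GC content of the mature miRNA (percent, horizontal axis) in each naïve rat. Points are miRNAs with a known sequence and a mean of at least 5 log2 CPM over the 8 libraries. The rho values shown are over the 194 miRNAs, which were chosen by their mean over all 36 libraries. The cloud slopes down in M157 and M378 and up in M476 and M480.

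The abundant GC-poor and GC-rich miRNAs printed above were picked because their differences varied most between the rats, so their spread is a description. miR-7a-5p differed by 1.28, 1.38, 0.07 and -0.999 in M157, M378, M476 and M480, miR-126a-3p by 0.78, 1.08, -0.85 and -1.07, and miR-16-5p by 0.44, 1.26, -0.67 and -1.08. Their means over the 4 rats were 0.43, -0.02 and -0.01. Of the GC-rich, miR-128-2-5p differed by 0.11, -0.89, -0.17 and 0.77, miR-667-3p by -0.92, -0.88, -0.27 and 0.68, and miR-187-3p by 0.16, 0.91, 1.29 and -0.37. None of these 3 had the signs of the GC-rich median in all 4 rats.

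The spread lay more in PL than in IL. The SD between the 4 rats was larger in IL for 59 of the 216 abundant miRNAs and in PL for the rest, with a median of 0.38 in PL and 0.25 in IL, and in PL for 54 of the 68 GC-poor ones, with medians of 0.58 and 0.28. miR-16-5p was at 4.73, 3.69, 5.98 and 5.79 log2 CPM in PL and at 5.17, 4.95, 5.31 and 4.72 in IL. A slope of level on GC content, in log2 for each 10 points of GC, ran in PL from -0.22 in M476 to 0.57 in M378 and in IL from 0.06 to 0.23. Whether the dissection, the RNA or the library preparation moved with it was not tested, and the sequencing pool of each library is not given in the sources used here.

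In the cocaine rats the pattern pointed one way. All 8 had a positive rho, from 0.26 to 0.72, as had M476 and M480, and median differences of GC-poor miRNAs from -0.77 to -0.01. PL also had the larger total count in all 8, from 11271265 against 11150270 in M472 to 18877136 against 9806085 in M366. The part of total counts in the pattern was not tested. The miRNAs called higher in IL in the 8 cocaine rats (102 of 457, 22.3%) had a median GC of 59.1% and those called lower (97, 21.2%) one of 42.9%. In the naïve rats 69 of the 102 were above 0, with a median of 0.07, and 72 of the 97 below, with a median of -0.16. By rat the median of the 102 was -0.12, -0.42, 0.18 and 0.50, and that of the 97 was 0.30, 0.58, -0.51 and -0.70.

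**Figure D4:**
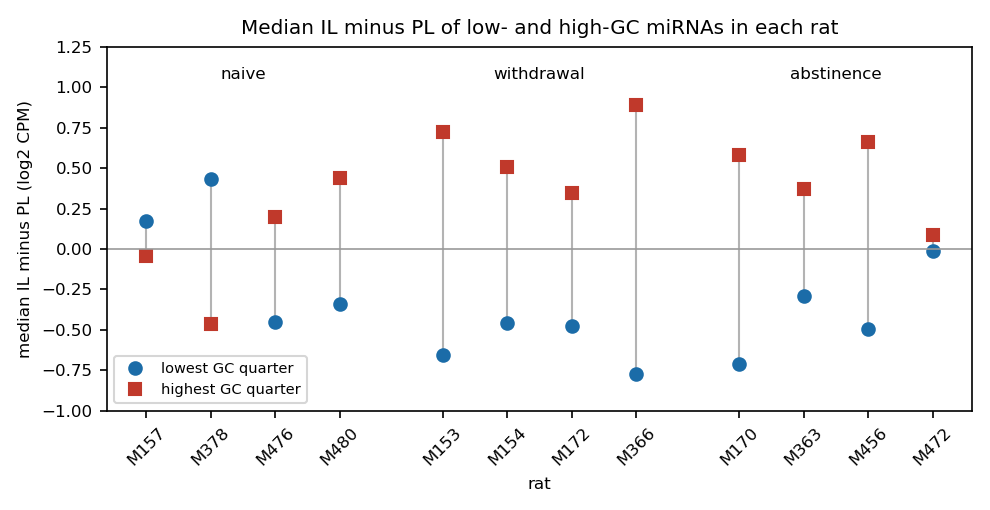
Median IL minus PL (log2 CPM, vertical axis) of the 68 GC-poor (circles) and 49 GC-rich (squares) miRNAs in each of the 12 rats. Squares lie above circles in all 8 cocaine rats and in M476 and M480, and below them in M157 and M378.

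Whether the regional difference itself differed between naïve and cocaine rats was tested in the same fit. For withdrawal 0 of 457 passed (0%; lowest adjusted p = 0.291), with 73 (16.0%) at an unadjusted p under 0.05, and for abstinence 0 passed (0%; lowest adjusted p = 0.48), with 37 (8.10%). These counts turned on single rats. Without M157, M378, M476 and M480 in turn, the 73 became 28, 32, 134 and 123, and the 37 became 16, 14, 58 and 75. The calls in the cocaine rats and their absence in the naïve rats therefore do not show that the 2 differ.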

How the data were processed

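The authors made small RNA libraries (NEBNext) from total RNA, sequenced them in pools, and aligned and counted the reads with the CAP-miRseq workflow. The deposited table holds whole-number counts of reads, 1 for each mature miRNA and library, with no normalization. The paper names the rat build rn6 and the submitters' notes mRatBN7.2, so no coordinates are given. The RefSeq sequences are of GRCr8.

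Each library was tied to its group and region by its labels and to its rat by a supplementary table of the study, except 1 naïve NAc library, which was tied by the design. Libraries of 1 rat are paired because they come from the same animal. Deviations from the group means correlated between IL and PL of the same naïve rat with r = 0.33, 0.30, 0.39 and -0.12, and M480 matched another rat best.

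All 36 libraries were fitted with edgeR 4.0.16 (R 4.3.3): filterByExpr (minimum count 10, minimum total count 15), TMM factors, rat as a fixed block and RIN as a covariate. Of 723 miRNAs, 95 had no count, and the 457 tested held 99.998106% of the counts. Adjusted p-values are Benjamini-Hochberg values over all tested, and a miRNA was called at under 0.05. For log2 CPM the prior count was 0.5. Intervals and SEs are Wald approximations, so that of miR-653-3p (-0.05 to 4.04) holds 0 although its p is under 0.05. The fit was also run on simulated counts, which had no differences between rats and no trend with GC content. That run does not show how the fit handles the GC trends of these libraries. Of the 28 pairs among the 8 libraries, 0 were identical. Python 3.11.15 and matplotlib were used for tables and figures. The alternatives included limma 3.58.1, DESeq2 1.42.0, other scaling and filters, fits without the block or RIN, subsets of libraries, leaving out each rat in turn and, chosen after seeing the data, a correction for GC content and counts without scaling factors.

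The miRNAs named are the 10 of lowest p in each direction, where fewer than 10 were called, the 10 most abundant, and up to 4 of the most abundant members of a list. Others, such as those that lay on the same side in all 4 rats, were chosen after their values were seen. The members and the lists were chosen with earlier results of these data known.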

Additional observations from a re-analysis of the deposited data

Results flagged for a closer look

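In 198 groups of 4 libraries, over 97 named miRNAs and over total counts and GC slopes, 10 held a library far from the other 3, and chance flags about 1 in 20 groups. In PL these were let-7a-5p in M480 (14.91 log2 CPM, lowest), miR-29b-2-5p in M476 (4.86, lowest), miR-183-5p in M157 (6.90, highest), miR-187-3p in M480 (6.57, highest), miR-370-3p in M378 (12.34, highest), miR-504 in M378 (10.98, highest) and miR-6324 in M480 (-1.29, highest). In IL these were miR-129-5p in M378 (14.70, lowest), miR-132-5p in M378 (10.59, lowest) and miR-145-5p in M378 (7.41, highest). Of the 10, 5 were libraries of M378.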

How the results depend on the processing

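For IL minus PL of the naïve rats the count of calls was 0 with RLE factors, without the filter, with DESeq2, with limma-voom, without the replicate block, without RIN, with a robust prior, in the 24 IL and PL, the 12 naïve and the 8 naïve IL and PL libraries, with the GC correction and without each rat in turn (0 to 0). Both tests of a difference from the naïve rats also gave 0 under each alternative run for them and without each rat (0 to 0). In the 8 cocaine rats the 199 calls became 182 without the replicate block, 160 to 198 without 1 rat, and 116 of 411 with the GC correction, which was chosen after seeing the data, where 184 of the same 411 had been called without it. No other count of calls moved without the block. Of the 20 miRNAs of lowest p, 1 changed sign under 1 alternative, miR-340-5p, which ranged from -0.39 to 0.016 without 1 naïve rat and was above 0 without M476, and 0 were called under any. That alternative has 1 rat fewer, and the cause was not tested. Leaving out 1 naïve rat moved 15 of the 20 by over 1.5 times, 1 without M157, 7 without M378, 8 without M476 and 5 without M480, some with more than 1 rat. Adjusted p-values of the 20 ranged from 0.876 to 1.

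Depth limits the least abundant miRNAs: miR-653-3p and miR-331-5p rest on sums of 19 against 5 and 21 against 45 reads. For the 454 miRNAs with a standard error, its median was 0.29, and 294 had an interval within a 2-fold difference.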

Other observations

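In a pair of further miRNAs the differences varied little between the naïve rats. Their SDs were 0.05 for miR-211-5p and 0.09 for miR-378a-3p, ranks 2 and 4 from the smallest of the 216 abundant miRNAs. miR-211-5p, whose gene lies in Trpm1, was higher in IL by 0.26, 0.36, 0.27 and 0.24, and miR-378a-3p, whose gene lies in Ppargc1b, was higher by 0.02 to 0.19. Neither was called in the naïve rats, and miR-211-5p was higher in IL in 7 of all 12 rats. Both were chosen after their values were seen. Their evenness also depends on the scaling, which moved the differences of a rat by up to 0.13 with RLE factors and 0.18 with total counts alone.

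After a line on GC content was taken out of each library, the differences of M378 and M480 still had r = -0.62 across 194 miRNAs, against -0.78 before, and M476 and M480 had 0.35, against 0.57, while M157 and M476 had 0.29, against 0.09. These are descriptions across miRNAs, not tests.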
